A study of Mus musculus with 8 samples.

Results

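Mir150, the mouse gene of miR-150, is 1 of the 2202 miRNA genes counted in this series and was selected by its Ensembl identifier, ENSMUSG00000065495.1. It was followed through all 8 libraries, together with its effect on the shares of the other features. miRNAs are short RNAs that an Argonaute protein such as AGO2 holds and that lead it to matching messenger RNAs, mainly through the seed near the 5′ end. miR-150 is known for its abundance in mature resting B, T and NK lymphocytes and for restraining Myb, a transcription factor gene needed by early lymphocytes. In lymphocyte activation its level is known to go down while that of miR-155, made from the Mir155hg transcript, goes up.

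The libraries are small RNA of mouse spleen B cells. All animals were Ago2HA/HA, so that both copies of the Ago2 gene carry an HA epitope, and AGO2 was precipitated with an antibody against it. Cells came from negative selection against CD43, a surface protein of most other leukocytes, and were either activated in vitro (proliferating) or left resting, and RNA was sequenced from the AGO2 immunoprecipitate (IP) and from the input. The 4 groups, proliferating IP, proliferating input, resting IP and resting input, hold 2 libraries each, numbered 1 and 2 in the titles. Per the labels, the IP from cells lacking the epitope gave no RNA, and each IP is therefore set against input. The sources used here name neither the activating agent nor the sex or age of the animals. They also do not say whether libraries 1 and 2 are separate animals, and the spread that the p-values measure may be technical. Library totals ran from 213418 to 1681148 counts, and 219 features passed the filter on low counts. The tables hold miRNA genes only, none of which marks B cells alone, so the labelled cell type could not be checked against a defining marker.

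Mir150 lies on the plus strand of chromosome 7 at 45121757 to 45121821 (mm10), a span of 65 nt that gives miR-150-5p and miR-150-3p. No other counted feature and no other gene of the RefSeq table overlaps it. The span of Rpl13a, a ribosomal protein gene that holds snoRNA genes, begins 3742 nt past the feature. Each feature was counted once for both arms, so a count cannot be given to the 5p or the 3p product. The 3p arm, which RefSeq (GRCm38.p6) places at bases 42 to 63 of the feature, is shown with the main 5p arm of the activation miRNA Mir155, whose level ran opposite to that of Mir150. Capitals mark the seed, bases 2 to 8.
miR-150-3p: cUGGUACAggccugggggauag
miR-155-5p: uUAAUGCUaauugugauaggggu
The 2 seeds differ, and among the 1738 mature entries of the RefSeq table none from another gene has the seed of miR-150-3p. The RefSeq entries used here hold only the 3p arm of Mir150. The seed of miR-150-5p was therefore not compared, and these seed results do not cover it.

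Mir150 was low in proliferating and high in resting cells in every library. It took 3.08% (95% exact interval 3.04 to 3.12) and 1.68% (1.66 to 1.70) of the counts of the proliferating IPs. The proliferating inputs held 2.88% (2.81 to 2.94) and 3.84% (3.76 to 3.93). In the resting IPs its share was 14.1% (14.02 to 14.12) and 19.05% (18.96 to 19.13), and in the resting inputs it was 30.7% (30.6 to 30.9) and 30.2% (30.1 to 30.4). The lowest resting library was thus above the highest proliferating one, and the resting IPs were below the resting inputs, while the proliferating IPs and inputs overlapped. The intervals cover counting error only and are narrower than the distance between the libraries of each group. Ranked by count, with no allowance for how well each miRNA is captured, Mir150 stood 9th and 10th in the proliferating IPs, 10th and 8th in the proliferating inputs, 2nd and 1st in the resting IPs and 1st in both resting inputs. In resting IP replicate 1 only Mir146, the gene of the NF-kappaB feedback miRNA miR-146a, stood above it, with 14.2% of the counts. By group the share was 2.38% ± 0.986 in the proliferating IP, 3.36% ± 0.685 in the proliferating input, 16.6% ± 3.52 in the resting IP and 30.5% ± 0.352 in the resting input (SD, n = 2 each). The proliferating IP and input are neighbours in this order that do not differ beyond their spread.

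**Figure D1:**
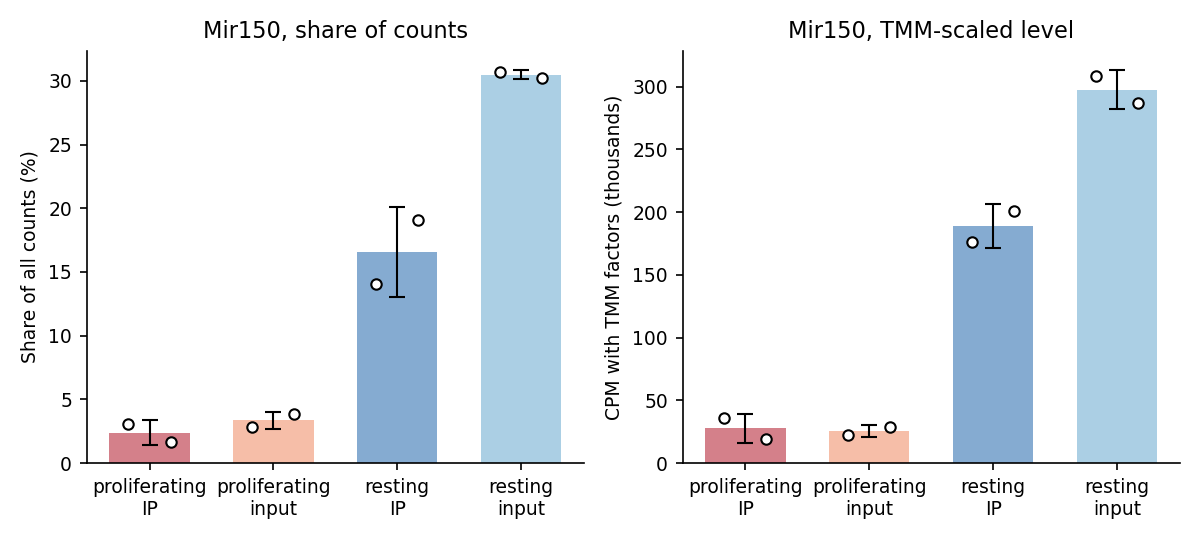
Mir150 in the 4 groups, as a share of all counts (left, %) and as CPM with TMM factors (right, axis in units of 1000 CPM); bars are means of 2 libraries, error bars SD, and points single libraries. Resting libraries hold 14.1% to 30.7% Mir150, above all proliferating libraries (1.68% to 3.84%).

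The comparison of proliferating with resting cells asks how the level of miR-150 differs between cell states before AGO2 is selected. Scaled with TMM factors, the input level was 22419 and 28773 CPM, counts scaled to a common library size, in proliferating cells, against 308424 and 286848 CPM in resting cells. The groups did not overlap, and proliferating cells had 0.0860 times the resting level (log2 fold change -3.54, SE 0.25, 95% interval -4.05 to -3.03, edgeR adjusted p = 4.9e-15). Many features differ between the states: 49.3% of the 219 tested were called at an adjusted p under 0.05, 26.0% higher and 23.3% lower in proliferating cells. Within that background Mir150 had the 9th lowest log2 fold change, and none of the features that were lower had a smaller p. The median log2 fold change of all tested features was 0.04. The level is relative to the other counted features and does not give an amount per cell. In these bulk samples, fewer cells that make miR-150 and less miR-150 per cell cannot be told apart.

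Among the AGO2-bound RNA the level was 35791 and 19629 CPM in the proliferating IPs, against 176487 and 201105 CPM in the resting IPs. Again the groups did not overlap, and Mir150 fell by 2.77 on the log2 scale (SE 0.25, 95% interval -3.26 to -2.27, edgeR adjusted p = 2.4e-12). The background of calls was 52.1%, with 28.3% higher and 23.7% lower, and the median feature stood at 0.21. Within that background Mir150 had the 17th lowest log2 fold change and ranked 3rd by p among the features that were lower. The log2 fold change was -3.26 without proliferating IP replicate 1 and -2.55 without replicate 2.

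Scaling sets where zero lies in these comparisons, and it moved Mir150 and the median feature together. With library totals in place of TMM factors, the input fold change was -3.18 on the log2 scale while the median feature moved to 0.40. With upper-quartile factors Mir150 was at -3.90 and the median at -0.31. The distance of Mir150 from the median feature in the input was -3.58 with TMM, -3.58 with library totals, -3.59 with RLE factors and -3.58 with upper-quartile factors. In the IP that distance was -2.98 with TMM, -3.01 with library totals, -3.00 with RLE factors and -2.93 with upper-quartile factors. A scaling factor moves all features of a library alike, so this distance hardly depends on the scaling by construction. The split of calls in the input was 57 higher and 51 lower with TMM, 75 and 37 with library totals, and 39 and 59 with upper-quartile factors. In the IP it was 62 higher and 52 lower with TMM, and 38 and 75 with upper-quartile factors.

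A count ratio to another feature of the same library needs no scaling. Since features can differ in how well they are captured, such a ratio is compared between libraries and not read as a number of molecules. For each count of Mir155 there were 0.285 and 0.136 counts of Mir150 in the proliferating IPs and 0.187 and 0.259 in the proliferating inputs. The resting IPs had 16.8 and 18.3 and the resting inputs 25.4 and 28.1. Mir150 was thus counted less often than Mir155 in every proliferating library and more often in every resting one. The group means of this ratio (geometric) differed 121-fold between the states in the input and 89.3-fold in the IP, in each case with the resting cells higher.

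Against other abundant miRNAs the resting-to-proliferating difference of the ratio was smaller but ran the same way. It was 20.4-fold in the input and 17.7-fold in the IP against Mir93, a miR-17 family gene within the replication gene Mcm7. Against Mir146 it was 15.9-fold in the input and 6.17-fold in the IP. Against Mir29a, of a family known for its level in quiescent cells, it was 2.53-fold in the input and 3.22-fold in the IP. For Mir26b, which lies within Ctdsp1, the ratio differed 8.08-fold in the input, but in the IP the groups overlapped, at 1.74 and 0.921 counts of Mir150 per count of Mir26b in proliferating cells against 1.61 and 2.48 in resting cells. The IP ranges also overlapped against Mir30d, at 17.03 and 8.24 in proliferating cells against 13.3 and 24.9 in resting cells.

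**Figure D2:**
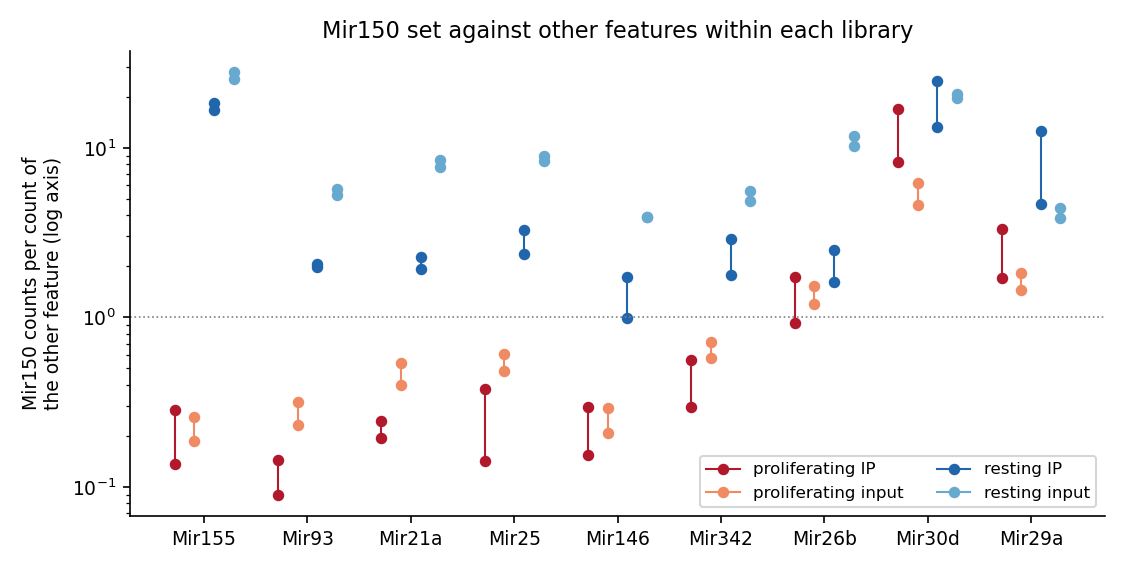
Counts of Mir150 per count of 9 other abundant features within each library (log axis); each point is a library, and a line joins the 2 libraries of a group. Against Mir155 the ratio is under 1 in all proliferating libraries (0.136 to 0.285) and 16.8 to 28.1 in resting ones, while the IP groups overlap for Mir26b and Mir30d.

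The comparison of IP with input asks whether miR-150 is over- or under-represented with AGO2. In proliferating cells Mir150 had 35791 and 19629 CPM in the IP, against 22419 and 28773 CPM in the input. The input libraries lie between the IP libraries, and the log2 fold change was 0.11 (SE 0.23, 95% interval -0.35 to 0.58, edgeR adjusted p = 0.73), against a background of 26.9% of features called. Mir150 was itself the median feature of this comparison, with rank 110 of 219. The interval leaves room for IP levels from 0.785 to 1.49 times the input. With library totals, which lowered the median feature to -0.50, the value for Mir150 turned to -0.50 (edgeR adjusted p = 0.15).

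In resting cells the IP held 176487 and 201105 CPM, against 308424 and 286848 CPM in the input. Both IP libraries were below both inputs, and Mir150 fell to 0.634 times the input level (log2 fold change -0.66, SE 0.23, 95% interval -1.12 to -0.19, edgeR adjusted p = 0.026), with 28.8% of features called. The direction was the same under all 19 alternatives, from -0.998 to -0.39, but the adjusted p was above 0.05 in 10 of them, among them RLE factors (0.16), upper-quartile factors (0.23) and DESeq2 (0.21). It was also lost without proliferating IP replicate 2, either proliferating input or either resting input, with adjusted p from 0.063 to 0.38. It held without proliferating IP replicate 1 (0.0039), without resting IP replicate 1 (0.0043) and without resting IP replicate 2 (9.7e-07). The distance from the median feature was -0.60 with TMM, -0.59 with library totals, -0.58 with RLE factors and -0.60 with upper-quartile factors.

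Other abundant miRNAs went in different directions in the same comparison. Relative to Mir26b, the count of Mir150 was 1.997 in the resting IP and 10.9 in the resting input, and relative to Mir21a it was 2.09 and 8.10 (geometric means of 2 libraries). Relative to Mir29a it was 7.69 in the resting IP and 4.12 in the resting input, the opposite order. In that fit Mir26b was higher in the IP (log2 fold change 1.81, edgeR adjusted p = 8.3e-08) and Mir29a lower (-1.44, edgeR adjusted p = 3.9e-05), so Mir150 stood between them.

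The difference between the states of the IP-to-input ratio was 0.77 on the log2 scale for Mir150 (SE 0.33, 95% interval 0.11 to 1.43, unadjusted p = 0.023, edgeR adjusted p = 0.093) and did not pass, with 17.4% of features called. Without resting IP replicate 1 it was 0.80 (edgeR adjusted p = 0.0077) and without replicate 2 it was 1.154 (edgeR adjusted p = 1.7e-05). Without proliferating input replicate 1 (edgeR adjusted p = 0.76) or resting input replicate 1 (edgeR adjusted p = 0.68) it was 0.27, and without proliferating input replicate 2 it was 0.41 (edgeR adjusted p = 0.65) and without proliferating IP replicate 1 it was 0.48 (edgeR adjusted p = 0.30). With TMM factors computed without the Mir150 row, which also changed the library TMM takes as its standard, it was 1.07 (edgeR adjusted p = 0.026). With the same standard library, a setting chosen after seeing the data, it was 0.85 and did not pass (edgeR adjusted p = 0.077).

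**Figure D3:**
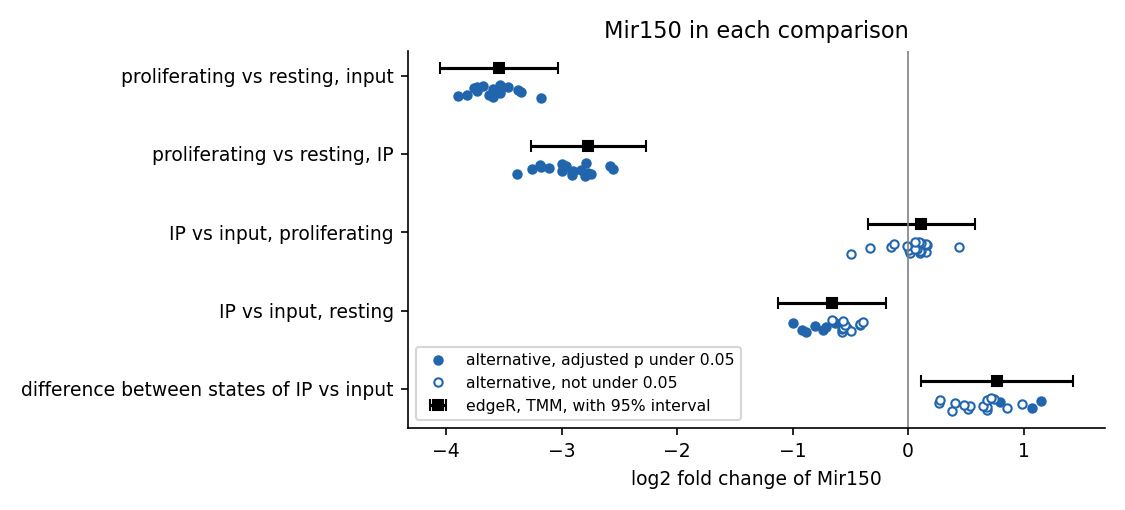
Log2 fold change of Mir150 in 5 comparisons; squares are the edgeR values with TMM factors and bars their 95% intervals, and circles the values under each alternative, filled where the adjusted p is under 0.05. All circles of the 2 comparisons between states are filled (-3.90 to -3.18 in the input, -3.38 to -2.55 in the IP), while those of IP against input are mixed in resting cells and open in proliferating cells.

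Because Mir150 took so much of a resting library, it lowered the share of every other feature there. Leaving it out multiplies all other shares by 1.03 and 1.02 in the proliferating IPs, 1.03 and 1.04 in the proliferating inputs, 1.16 and 1.24 in the resting IPs, and 1.44 and 1.43 in the resting inputs. The step is large in resting cells and small in proliferating ones. In the input it moves the log2 ratio of mean shares, proliferating over resting, by a median of -0.48 for the other features, and in the IP by -0.23. Of the 210 other tested features with counts in both states of the input, 120 had a higher share in proliferating cells with Mir150 in the total and 103 without it, so 17 turned direction. In the IP 7 of 217 turned. For IP against input, 20 of 213 turned in resting cells (median shift -0.26) and 0 of 214 in proliferating cells.

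Tests that scale by library totals carry this shift. With Mir150 in the totals, 75 of 218 other features (34.4%) were called higher and 36 (16.5%) lower in the proliferating input. With Mir150 taken out of the table and the totals, 51 (23.4%) were higher and 54 (24.8%) lower. All of those 51 and 36 were called in the same direction both ways, 24 features were called higher only with Mir150 counted, and 18 were called lower only without it. In the IP the calls were 60 higher (27.5%) and 48 lower (22.0%) with Mir150, and 56 higher (25.7%) and 63 lower (28.9%) without it. For IP against input in resting cells, 25 of the 218 were higher and 40 lower with Mir150, and 20 and 61 without it. In proliferating cells the calls were 16 higher and 60 lower with it, and 16 and 61 without it.

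Among the features whose call changed in the input, Mir146, Mir21a, Mir25 and Mir342 were the most abundant. Mir146 took 13.5% of the counts in proliferating cells, against 7.80% in resting cells, and was called with library totals (log2 fold change 0.80, edgeR adjusted p = 0.0017). Without Mir150 its shares were 14.01% in proliferating cells and 11.2% in resting cells, and it was not called (0.32, edgeR adjusted p = 0.077), nor was it with TMM factors (0.44, edgeR adjusted p = 0.091). Mir342, a haematopoietic miRNA within the Evl gene, had nearly equal shares of 5.21% in proliferating and 5.89% in resting cells (-0.18, edgeR adjusted p = 0.42). Without Mir150 these were 5.39% and 8.47%, and Mir342 was called lower in proliferating cells (-0.65, edgeR adjusted p = 0.0033), as it was with TMM factors (-0.54, edgeR adjusted p = 0.047). Mir21a, a miRNA induced in activated cells, had a log2 fold change of 0.93 with Mir150 in the totals (edgeR adjusted p = 0.0014) and 0.46 without it (edgeR adjusted p = 0.053), and with TMM factors it was called (0.58, edgeR adjusted p = 0.028). For Mir25, the neighbour of Mir93 in Mcm7, the values were 0.80 (edgeR adjusted p = 0.0036) and 0.33 (edgeR adjusted p = 0.13), and with TMM factors it was not called (0.44, edgeR adjusted p = 0.098).

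With TMM factors, which trim extreme features, the effect of Mir150 differed between comparisons. When Mir150 was taken out before the factors were computed, 49 of the other features were called higher and 61 lower in the input, against 57 and 50 with it, and the median shift was -0.28. The library that TMM takes as its standard changed at the same time, to proliferating IP replicate 2 without Mir150, against replicate 1 with it. With replicate 1 kept as the standard, a setting chosen after seeing the data, the shift was -0.09 and the calls were 53 higher and 52 lower. In the resting IP against input the calls of the other features were 25 higher and 48 lower without Mir150 and 29 higher and 33 lower with it, and 29 higher and 36 lower with the same standard library. Between states in the IP they were 61 higher and 50 lower without Mir150 and 62 higher and 51 lower with it, with a median shift of 0.03. For IP against input in proliferating cells they were 29 higher and 30 lower both ways.

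**Figure D4:**
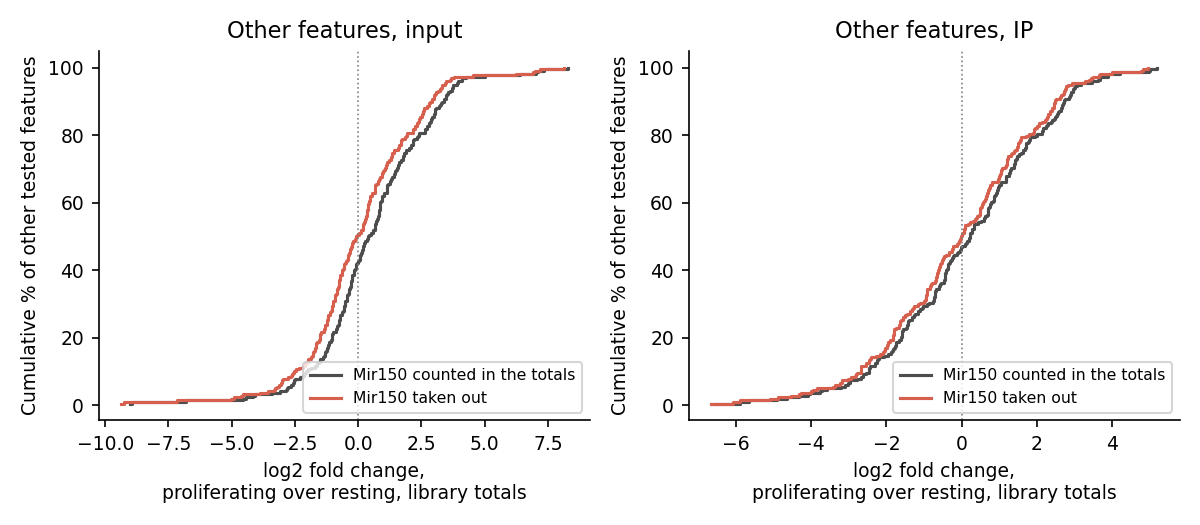
Cumulative share (%) of the 218 other tested features by log2 fold change, proliferating over resting, scaled with library totals, in the input (left) and the IP (right). Taking Mir150 out shifts the whole curve to lower values, by a median of -0.47 in the input and -0.22 in the IP.

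The features whose level followed Mir150 most closely were sought over the 8 libraries. The measure is the root-mean-square difference of log2 CPM, each feature centred on its own mean, among 209 other features with at least 10 CPM on average. It ran from 0.398 to 3.52 with a median of 1.84. The 6 closest were Mir3971 (0.398), Mir322 (0.499), Mir139 (0.545), Mir1843b (0.599), Mir6957 (0.678) and Mir140 (0.679). Their log2 fold changes in proliferating cells ran from -4.42 to -2.46 in the input and from -3.78 to -1.59 in the IP, given as a description since likeness over these libraries chose them. Mir140, which lies within Wwp2, is the most abundant of them, with at least 1519 counts in every library. It averaged 6132 ± 421 CPM in the proliferating IP and 5208 ± 169 CPM in the proliferating input, against 18458 ± 5290 CPM in the resting IP and 28672 ± 3614 CPM in the resting input (SD, n = 2 each). Mir6957 rests on 0 to 47 counts a library, and Mir1843b overlaps the small Cajal body RNA gene Scarna3a, which leaves the origin of its reads uncertain. The most opposite patterns, by the same measure with the sign turned, were those of Mir18b (0.293), Mir96 (0.358) and Mir155 (0.378).

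**Figure D5:**
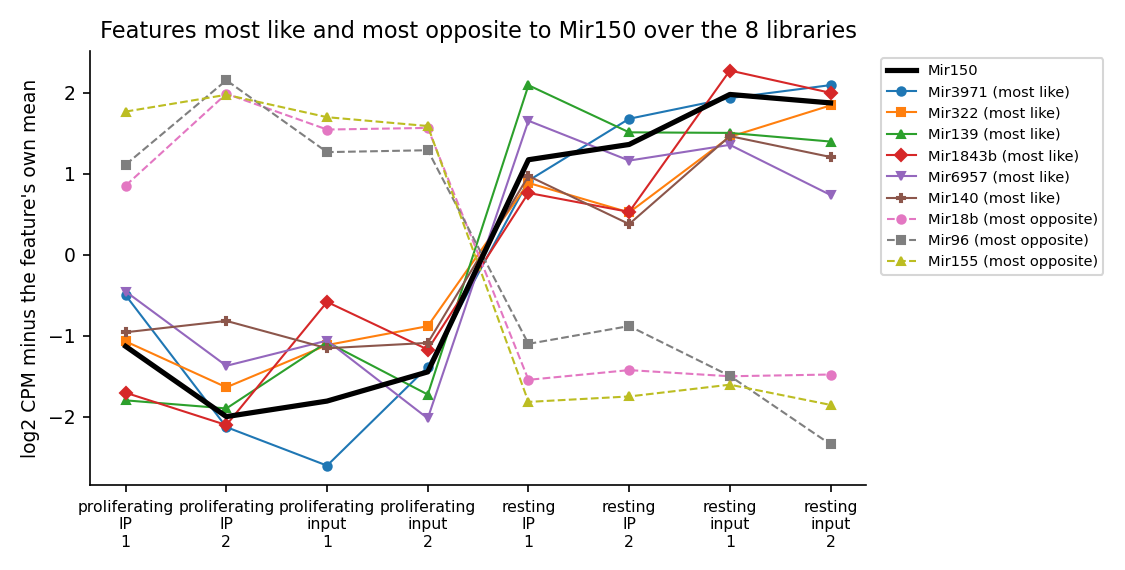
Log2 CPM minus each feature's own mean in the 8 libraries, for Mir150 (thick line), the 6 features most like it (solid) and the 3 most opposite (dashed). The lines cross between the proliferating libraries on the left and the resting ones on the right; Mir155 mirrors Mir150.

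The 9 mature sequences of these 6 features in the RefSeq table have 9 different seeds, and none is that of miR-150-3p, the only arm of Mir150 compared. The closest feature, Mir3971 on chromosome 11, shares sequence with the Mir150 hairpin in another way. Its mature form holds 10 bases that are the reverse complement of the first 10 of miR-150-3p. That form was the only 1 of 1673 distinct mature sequences compared with a run that long. The other arm of Mir150 was not among the sequences used, so the likeness of miR-3971 to that arm was not tested. Capitals mark the 10 complementary bases in each.
miR-150-3p: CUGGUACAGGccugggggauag
miR-3971: cuccccaccCCUGUACCAGuga
Mir3971 had 15 and 6 counts in the proliferating IPs, 1 and 3 in the proliferating inputs, 85 and 82 in the resting IPs and 47 and 60 in the resting inputs. That is 0.126 to 0.613 counts for each 1000 of Mir150 in proliferating libraries and 0.359 to 0.546 in resting ones. The ranges overlap, but Mir3971 was chosen for its likeness to Mir150, so a similar ratio follows from the choice. The sources used here do not say how reads were divided between similar hairpins, and whether any Mir3971 counts are reads of Mir150 was not tested, so its level is uncertain.

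Of the miRNAs known from resting lymphocytes (the gene of miR-150 with the families of miR-26, miR-29 and miR-30, 14 genes), 11 were tested. By name 13 of the 14 were found, and Mir30e was not, so its level is not known here. This list and the activation list below were chosen with earlier results of these data known, so their counts only describe them. In proliferating cells 8 fell in the input (7 of 10 without Mir150), where 23.3% of all tested features were lower, and 3 did not pass. The median log2 fold change was -1.39 (-1.28 without Mir150), against 0.04 for all tested features. Those that fell included Mir29c (-2.93), Mir29a (-2.22), Mir30d (-1.64) and Mir26b (-0.54). In the IP, where 23.7% of all tested features were lower, 8 fell as well (7 of 10 without Mir150). The median there was -1.75 (-1.67 without Mir150), against 0.21 for all tested features. There Mir26b (-2.19), Mir30d (-2.26), Mir29c (-1.75) and Mir29a (-1.27) all fell. Of 18 activation miRNAs, 12 rose in the input (26.0% of all tested features were higher), with a median of 0.87, and 6 did not pass. In the IP 14 rose (28.3% of all tested features were higher there), with a median of 1.74, and 4 did not pass. Mir155 rose by 3.37 in the input (SE 0.24, edgeR adjusted p = 4.9e-15), close in size to the fall of Mir150. Members with more counts than Mir155 over all 8 libraries together moved less in the input. Mir93 (0.80) and Mir21a (0.58) passed there, while Mir146 (0.44) and Mir25 (0.44) did not. Within the proliferating input itself Mir155 was the most abundant feature, with 15.1% of the counts. In the IP Mir93 (1.32) and Mir25 (0.77) passed, while Mir146 (-0.24) and Mir21a (0.46) did not.

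A second miRNA feature near Mir150, Mir5121, lies 5097 nt away on the minus strand (45126918 to 45126991) and overlaps the snoRNA gene Snord33 within Rpl13a. It had 47 and 39 counts in the proliferating IPs, 149 and 90 in the proliferating inputs, 47 and 63 in the resting IPs and 516 and 501 in the resting inputs. Like Mir150 it was lower in proliferating than in resting input (log2 fold change -1.86, SE 0.39, edgeR adjusted p = 1.6e-04), but it was at -0.23 in the IP (edgeR adjusted p = 0.66). It was far lower in the IP than in the input, at -2.88 in proliferating and -4.51 in resting cells, where Mir150 stood at 0.11 and -0.66.

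miRNAs of other cell types were present, and their shares also differed between the states. Of 17 markers of myeloid, erythroid, endothelial, epithelial, stromal and liver cells, 16 were found by name. Mir451a was not, so its level is not known here. Of the 16, Mir126b, Mir199a-2 and Mir214 were at 0, and 13 had a count. Their summed share was 0.199% to 0.330% in the proliferating IPs, 0.354% to 0.506% in the proliferating inputs, 1.68% to 3.18% in the resting IPs and 1.32% to 3.02% in the resting inputs. Except in the proliferating IPs, most of this was the myeloid Mir223, with 0.0695% to 0.106%, 0.221% to 0.339%, 1.45% to 2.94% and 1.153% to 2.86% in the same 4 groups. The endothelial Mir126a had the opposite order, at 0.0889% to 0.176%, 0.0626% to 0.0820%, 0.00613% to 0.0147% and 0.0173% to 0.0253%. The erythroid and epithelial sums were higher in resting than in proliferating cells, in the IP and in the input. The stromal sum was higher in the resting IPs, but its ranges overlapped in the input. The liver Mir122 was higher in the resting IPs and lower in the resting inputs. Mir223 moved with Mir150 between the states, and the part of other cells in the Mir150 difference was not tested. T and NK cells, which hold miR-150 too, have no miRNA of their own among these markers.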

How the data were processed

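The deposited tables hold raw counts per Ensembl miRNA gene from deduplicated alignments, per the file headers. STAR 2.7.9a, SAMtools 1.15 and mm10 are named in the submitters' processing notes. The sources used here name no counter, strand setting, deduplication method or treatment of multiply mapped reads. Resting and proliferating libraries stand in separate tables, so table and state cannot be told apart. Features were named by exact coordinates from RefSeq GRCm38.p6 (1179 of 2202).

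All 8 libraries in 4 groups entered the quasi-likelihood fit of edgeR 4.0.16 (R 4.3.3), with TMM factors and filterByExpr at a minimum count of 10, which kept 219 features. Tests were 2-sided with Benjamini-Hochberg adjustment over all of them. SE is the absolute log2 fold change over the square root of F. The prior degrees of freedom were 36.6, against 4 residual, so small p-values rest mostly on spread shared over features. DESeq2 1.42.0 was an alternative. The fit was tested on simulated data. Shares are of all counts, with exact (Clopper-Pearson) intervals. Within each group the libraries differed beyond sampling noise (a chi-square of at least 8.56 for each degree of freedom).

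Mir150, the lists and the other named features (within 10 kb, most like in pattern, most abundant, or changed by leaving Mir150 out) were chosen by rules written with earlier results of these data known.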

Additional observations from a re-analysis of the deposited data

How the results depend on the processing

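Mir150 stayed lower in proliferating than in resting cells, with an adjusted p under 0.05, under all 18 alternatives in the input (-3.90 to -3.18 on the log2 scale) and all 18 in the IP (-3.38 to -2.55). Leaving out each library in turn gave -3.76 to -3.37 in the input and -3.26 to -2.55 in the IP. IP against input in proliferating cells passed under none of 19 alternatives (edgeR unadjusted p = 0.62 with TMM). It turned to -0.50 with library totals, and leave-one-out values ran from -0.33 to 0.44. In resting cells it lost its call at -0.57 with RLE factors, -0.50 with upper-quartile factors, -0.57 with DESeq2, -0.57 where features needed a mean CPM of 10, and -0.66 (adjusted p = 0.054) with a replicate block within state. Leave-one-out values were -0.998 to -0.39. The difference between states passed with TMM factors computed without Mir150 (1.07) but not with the same TMM standard library (0.85, adjusted p = 0.077), and leave-one-out values were 0.27 to 1.154. The cause was not tested.

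The replicate numbers are shared by the groups, but the labels do not say that they mark the same animal, and deviations of same-numbered libraries correlated between -0.12 and 0.18 across features in the 6 pairs of groups. With the replicate number as a block over all groups, Mir150 was at -3.53 in the input, -2.79 in the IP, 0.09 for IP against input in proliferating cells, -0.65 in resting cells and 0.74 for their difference, and called features numbered 100, 109, 60, 62 and 40. It changed no call of Mir150.

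Counts of called features in the difference between states were 38 with TMM, 25 with RLE factors, 22 with upper-quartile factors and 19 where features needed a mean CPM of 10. Leave-one-out counts ran from 11 to 46 there, 30 to 63 for IP against input in proliferating cells, 45 to 72 in resting cells, 73 to 114 between states in the input and 94 to 116 in the IP. The split of calls for IP against input was 29 higher and 30 lower in proliferating cells (16 and 60 with library totals). In resting cells it was 29 and 34 (33 and 23 with upper-quartile factors, 24 and 50 with TMM factors without Mir150). For the difference between states it was 21 and 17 with TMM, 7 and 20 with library totals, 7 and 15 with upper-quartile factors, 32 and 15 with TMM factors without Mir150, 15 and 20 without a filter and 8 and 11 with the CPM filter. The resting input share of Mir150 was 32.0% among features that overlap no snoRNA, scaRNA or tRNA gene. The number of libraries, 2 a group, limits all tests, and depth limits the values of features with few counts such as Mir3971 and Mir6957.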
